A study of Mus musculus with 4 samples.

Results

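Maf, Prdm1, Zeb1, Zeb2, Bhlhe40 and Hopx are 6 genes for transcription factors of effector and tissue-resident T cells. They were taken by name, and they are 6 of the 21889 genes whose accessibility was counted in the same way. Accessibility was the number of ATAC fragments with an end in the gene span or within 5 kb of it, per 1000000 fragments (FPM) of a cell type. At Maf and Prdm1, 500-bp tiles within 100 kb of the span were counted as well. All 6 genes passed the minimum of fragments for every comparison. No other protein-coding gene lay in a window of the 6, though those of Zeb1, Zeb2, Bhlhe40 and Hopx also held annotated noncoding genes, such as Zeb2os and Hopxos.

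T cells were sorted from AKP tumors and from the adjacent tumor-free cecum of mice, 4 weeks after transplantation. AKP tumors grow from engineered intestinal organoids, with loss of Apc and Trp53 among their driver mutations, placed in the cecal wall. Nuclei were read with the 10x multiome assay, which gives RNA and open chromatin of the same nucleus, and each tissue gave 1 ATAC library. Every animal therefore carried a tumor, the cecum cells are no healthy control, and the number and age of the animals behind a library are not given in the sources used here.

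The authors' labels, made from the RNA, sorted 7155 cecum cells and 8466 tumor cells into 17 cell types. Of these, 16 had at least 50 cells in each library. PD1+ CD4 cells (14 from the cecum, 616 from the tumor) were left out of every ordering. Median depth per labelled cell was 4374 fragments for cecum and 5846 for tumor. The libraries shared 84 labelled barcodes, 1.17% of the cecum and 0.992% of the tumor cells. Foxp3, the Treg lineage factor, was highest in the IL10+ and IL10- Treg labels in both libraries. Other Treg markers were less specific. Il2ra was highest in Rorgt gdT cells (226 and 231 FPM), then in Th2 cells and then in IL10- Treg cells (189 and 183 FPM). Ctla4 was highest in IL10+ Treg cells (160 and 135 FPM), then in Tfh-like cells, and IL10- Treg cells came further down. Trdc, the gamma-delta receptor constant gene, was highest in the Cytotoxic gdT and Rorgt gdT labels. Cd8a was highest in PD1+ CD8, Cytotoxic CD8 and CCR7+ CD8 cells. Summed over each list, 6 T cell genes had 512 to 825 FPM over the 16 labels and both libraries, 6 B and plasma cell genes 131 to 223 FPM, 6 myeloid genes 74.9 to 162 FPM and 8 epithelial genes 84.7 to 213 FPM. The windows of the lists differ in length. Per kb the values were 3.53 to 5.68 FPM for T cell, 0.20 to 0.33 for B and plasma cell, 0.41 to 0.88 for myeloid and 0.37 to 0.94 for epithelial genes. Of the 20 genes outside the T cell list, 6 in cecum cells and 6 in the tumor were at 0 in at least 1 label. With 1 library per tissue there was no replicate, no test was made, and every interval is exact, at 95%, and limited to counting error. Fewer cells with open chromatin and less open chromatin per cell cannot be told apart in these sums.

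The genes fall into pairs by what they are known for. Maf encodes c-Maf, which drives Il10 in several T helper and regulatory cells and helps to set up Treg cells of the gut, and Prdm1 encodes Blimp-1, a repressor of effector and tissue-resident T cells that also favours IL-10. Zeb1 and Zeb2 encode related zinc finger repressors that are known to work in opposite directions in CD8 T cells, Zeb1 in memory and Zeb2 in terminal effector cells. Bhlhe40 encodes a helix-loop-helix factor that limits IL-10 and sustains cytokine production and mitochondrial function of tissue T cells, and Hopx encodes a small homeodomain protein without DNA binding of its own that is known from cytotoxic and Th1 cells and from Treg cells. An ATAC fragment marks chromatin that the transposase could enter, so these values describe the openness of the genes and not their RNA or protein.

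The table of RefSeq promoter sequences used here (build GRCm38.p6) matched 3 of the 6 genes, Prdm1, Zeb2 and Hopx, all on the minus strand. The 250 bases before a start are shown for the Prdm1 start with the open window described below, for both starts of Hopx, which differed in their accessibility, and for the most accessible and the outermost of the Zeb2 starts, for the same reason. They are printed 5′ to 3′. Capitals mark matches, on either strand, to CACGTG (the E-box of Bhlhe40), to CACCTG (the E-box of Zeb1 and Zeb2, CAGGTG on the other strand) and to TGCTGA (a core of the Maf recognition element, TCAGCA on the other strand).
Prdm1, chr10:44458749-44458998: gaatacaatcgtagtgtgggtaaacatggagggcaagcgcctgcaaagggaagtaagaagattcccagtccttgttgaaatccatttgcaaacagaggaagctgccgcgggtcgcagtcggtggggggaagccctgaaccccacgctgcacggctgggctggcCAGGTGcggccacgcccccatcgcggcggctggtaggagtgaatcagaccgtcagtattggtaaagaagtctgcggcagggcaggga
Hopx outer start, chr5:77115124-77115373: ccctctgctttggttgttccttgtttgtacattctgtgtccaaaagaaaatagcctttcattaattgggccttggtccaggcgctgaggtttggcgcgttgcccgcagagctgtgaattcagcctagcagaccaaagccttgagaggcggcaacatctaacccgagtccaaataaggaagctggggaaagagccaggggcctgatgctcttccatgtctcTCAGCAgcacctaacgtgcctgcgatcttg
Hopx inner start, chr5:77095268-77095517: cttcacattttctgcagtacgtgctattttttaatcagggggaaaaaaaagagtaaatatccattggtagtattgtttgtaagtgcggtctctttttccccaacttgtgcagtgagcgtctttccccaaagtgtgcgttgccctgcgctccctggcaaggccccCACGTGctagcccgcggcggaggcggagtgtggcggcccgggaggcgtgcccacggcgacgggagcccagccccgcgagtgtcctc
Zeb2 inner start, chr2:45110278-45110527: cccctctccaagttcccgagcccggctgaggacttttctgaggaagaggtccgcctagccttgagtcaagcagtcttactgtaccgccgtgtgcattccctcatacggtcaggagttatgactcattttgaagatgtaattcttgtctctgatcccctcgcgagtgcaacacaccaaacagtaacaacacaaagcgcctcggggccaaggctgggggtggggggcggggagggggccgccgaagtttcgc
Zeb2 outer start, chr2:45117443-45117692: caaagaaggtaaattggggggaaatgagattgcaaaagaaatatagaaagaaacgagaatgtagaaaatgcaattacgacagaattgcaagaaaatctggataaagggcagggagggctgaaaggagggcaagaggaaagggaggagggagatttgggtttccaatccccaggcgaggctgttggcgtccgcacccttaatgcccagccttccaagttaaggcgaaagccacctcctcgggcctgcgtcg
Prdm1 held 1 match to CACCTG, the outer Hopx start 1 to TGCTGA, the inner Hopx start 1 to CACGTG, and both Zeb2 starts none. No matches overlapped each other. Of 32851 upstream sequences of the same length, 6.02% held CACGTG, 17.2% CACCTG and 16.1% TGCTGA. A match is a description of letters, not of binding.

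Maf (chromosome 8, 115703253 to 115706894) had the widest spread of the 6 genes. In the cecum it stood at 139 FPM in Tfh-like cells, 130 FPM in IL10+ Treg cells, 123 FPM in Th2 cells and 121 FPM in Th17 cells. The same labels led in the tumor, with 145 FPM in IL10+ Treg, 132 FPM in Th2, 128 FPM in Tfh-like and 116 FPM in Th17 cells, and none of these neighbours in the order were separated by their counting intervals. IL10- Treg cells had 116 and 98.7 FPM. All CD8 and cytotoxic labels lay in the lower part of the order. PD1+ CD8 cells had 63.3 FPM in cecum cells and 61.2 FPM in the tumor, Cytotoxic CD8 cells 39.5 and 39.7 FPM, and Cytotoxic gdT cells 24.3 and 17.9 FPM. CD8aa cells, intraepithelial-type cells with CD8 alpha homodimers, were lowest, at 6.5 FPM (14 fragments, 3.55 to 10.9) in cecum cells and 17.1 FPM (59 fragments) in the tumor. The highest label exceeded the lowest by 4.42 on the log2 scale in cecum cells (3.65 to 5.31) and by 3.09 in the tumor (2.69 to 3.51). With a pseudocount of 1 FPM that range was 4.22 and 3.01, beside a median of 0.86 and 0.84 over all genes. Rorgt gdT cells, gamma-delta cells of the IL-17 type, did not share the low level of the cytotoxic gamma-delta label and had 104 and 112 FPM.

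Prdm1 (chromosome 10, 44437174 to 44528558) was, with Zeb1, the most even of the 6 over the labels. Its highest level was in IL10+ Treg cells, with 225 FPM in cecum cells and 229 FPM in the tumor, and its lowest in Innate-like T#1 cells, with 114 and 118 FPM. The log2 range of 0.98 and 0.95 was close to that of the median gene. Mucosal Th1 cells, Th17 cells and newly activated CD4 cells stood at 224, 220 and 213 FPM in the cecum, within counting error of the leading label, and the order of the first places moved with the settings. Tfh-like cells, whose factor Bcl6 and Blimp-1 are known to repress each other, were among the lower labels, with 167 FPM in cecum cells and 141 FPM in the tumor. CCR7+ CD4 cells, of naive or central memory type, were at 186 and 190 FPM. Mucosal Th1 cells exceeded them in the cecum (log2 0.27, 0.06 to 0.48), and in the tumor that interval included 0 (0.16, -0.14 to 0.46).

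Zeb1 (chromosome 18) and Zeb2 (chromosome 2, 44983512 to 45117442) differed in the labels that led them. Zeb1 was highest in CCR7+ CD8 cells in the cecum (394 FPM) and in CCR7+ CD4 cells in the tumor (385 FPM, and 378 FPM in the cecum). Its lowest levels were 192 FPM in Th2 cells of the cecum and 207 FPM in PD1+ CD8 cells of the tumor. Zeb2 was low in the CCR7+ labels, with 67.7 and 95.7 FPM in CCR7+ CD8 cells and 64.5 and 52.1 FPM in CCR7+ CD4 cells, and newly activated CD4 cells had 58.6 and 77.1 FPM. The labels with most Zeb2 in the cecum were CD8aa cells (203 FPM, and 181 FPM in the tumor), Cytotoxic gdT cells (181 and 197 FPM), Th2 cells (181 and 180 FPM) and Cytotoxic CD8 cells (159 and 154 FPM). In the tumor Rorgt gdT cells (181 FPM) stood beside CD8aa and Th2 cells and were also second for Zeb1 (315 FPM), and Th17 cells (169 FPM) came before Cytotoxic CD8 cells. Across the 16 labels the log2 levels of Zeb1 and Zeb2 had a Pearson r of -0.54 in cecum cells and -0.46 in the tumor, a description over labels of 1 library each that share depth and scaling. Cytotoxic CD8 cells, high in Zeb2, were near the median label for Zeb1 (274 FPM beside a median of 275 FPM in the cecum, and 267 FPM beside 263 FPM in the tumor).

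Bhlhe40 (chromosome 6, 108660629 to 108666925) was lowest in CCR7+ CD4 cells of the tumor and both CCR7+ labels of the cecum, and among its higher labels were cells of type 17 and type 2 and IL10+ Treg cells. Rorgt gdT cells had 298 FPM in cecum cells and 275 FPM in the tumor, Th2 cells 234 and 282 FPM, Th17 cells 227 and 265 FPM, and IL10+ Treg cells 243 and 246 FPM. CCR7+ CD4 cells had 77.1 and 69.9 FPM and CCR7+ CD8 cells 75.6 and 141 FPM. The range was 1.98 on the log2 scale in cecum cells (1.67 to 2.30) and 2.02 in the tumor (1.53 to 2.52). PD1+ CD4 cells, outside the order, had 310 FPM in the tumor, above every ordered label there, and 325 FPM from 29 fragments in the cecum. Per kb of window Bhlhe40 was the most accessible of the 6, with 10.9 FPM per kb in cecum cells and 12.6 in the tumor, followed by Maf with 5.76 and 5.11, while the long genes had 1.83 and 1.74 (Prdm1), 1.75 and 1.77 (Hopx), 1.46 and 1.35 (Zeb1) and 0.81 and 0.90 (Zeb2).

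Hopx (chromosome 5, 77086986 to 77115123) was led by regulatory cells. In the tumor the lead moved with the settings. Without flanks it went to Mucosal Th1 cells, and within 1 kb of the gene ends or as a mean over cells to IL10+ Treg cells. IL10- Treg cells had 120 FPM in cecum cells and 107 FPM in the tumor, and IL10+ Treg cells followed with 84.9 and 93.5 FPM. In the cecum the step between these labels was separated by its interval (log2 0.50, 0.30 to 0.70), and in the tumor it was not (0.20, -0.02 to 0.41). Mucosal Th1 cells came next in the tumor (92.6 FPM), within counting error of IL10+ Treg cells, and Cytotoxic CD8 cells had 79.1 and 77.8 FPM. CCR7+ CD4 cells were lowest, with 33.5 and 34.2 FPM, and Innate-like T#1 cells had 41.0 and 43.1 FPM.

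**Figure D1:**
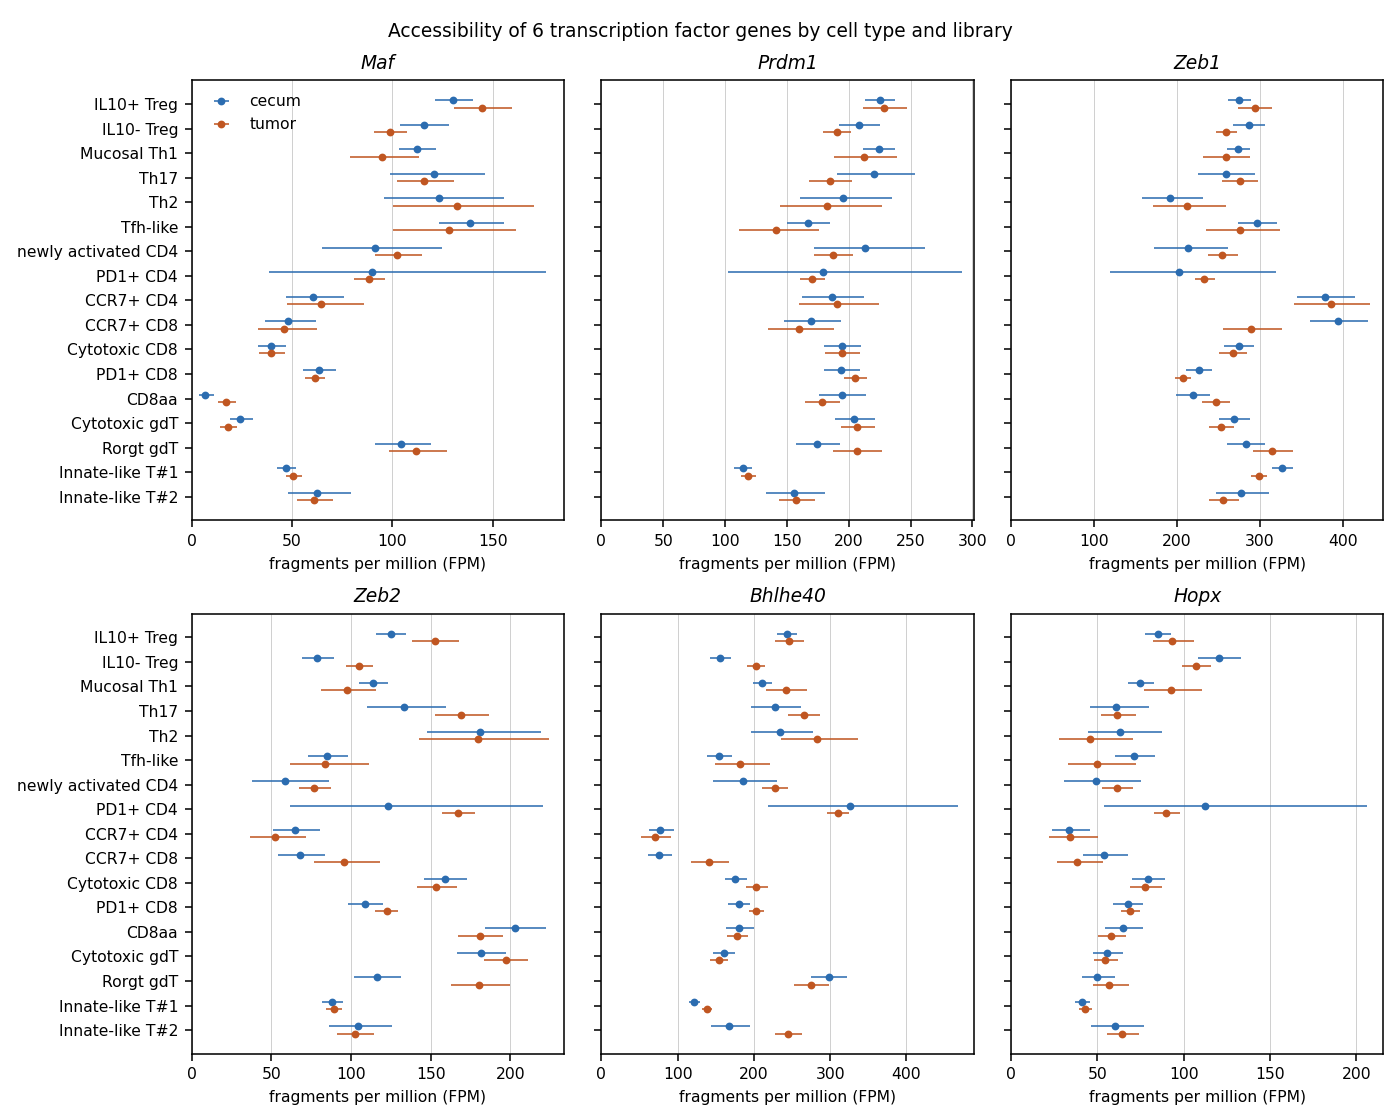
Accessibility of each gene (x axis, FPM in the gene span with 5 kb on each side, linear from 0) in 17 cell types (rows) of the cecum (blue) and tumor (orange) library, with bars for exact 95% counting intervals. Maf is lowest in CD8aa and Cytotoxic gdT cells, between 6.5 and 24.3 FPM, Zeb1 is high and Bhlhe40 low in CCR7+ CD4 cells, and Hopx is highest in IL10- Treg cells. PD1+ CD4 cells of the cecum rest on 14 cells.

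The starts of Hopx differed in the cells that opened them. The 300-base window of the outer start (250 bases before and 50 after it) held 3.02 FPM in cecum cells and 3.25 FPM in the tumor over all labelled cells. IL10- Treg cells had 11 FPM there in cecum cells (33 fragments, 7.57 to 15.4) and 10.7 FPM in the tumor (62 fragments, 8.19 to 13.7). IL10+ Treg cells had 8.41 and 7.33 FPM, from 48 and 20 fragments. The next ordered label in both libraries was Th17, with 4.59 FPM from 4 fragments and 3.42 FPM from 8 fragments. PD1+ CD4 cells of the tumor were also high, with 8.14 FPM from 50 fragments. CCR7+ CD4 and CCR7+ CD8 cells had 0 fragments in both libraries, and 3 fragments, the one-sided limit that a count of 0 allows, would be 2.51 and 2.36 FPM in cecum cells and 4.11 and 3.38 FPM in the tumor. The exact two-sided intervals end a little higher, at 3.09 and 2.90 FPM and at 5.05 and 4.15 FPM. The inner start, 1 of 2 for the same gene, had 9.87 and 9.39 FPM over all cells and no such pattern. There IL10- Treg cells had 10.7 and 9.99 FPM, CCR7+ CD4 cells 10.1 and 4.11 FPM, Mucosal Th1 cells 11.8 and 14.7 FPM and Innate-like T#1 cells 7.93 and 7.44 FPM.

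**Figure D2:**
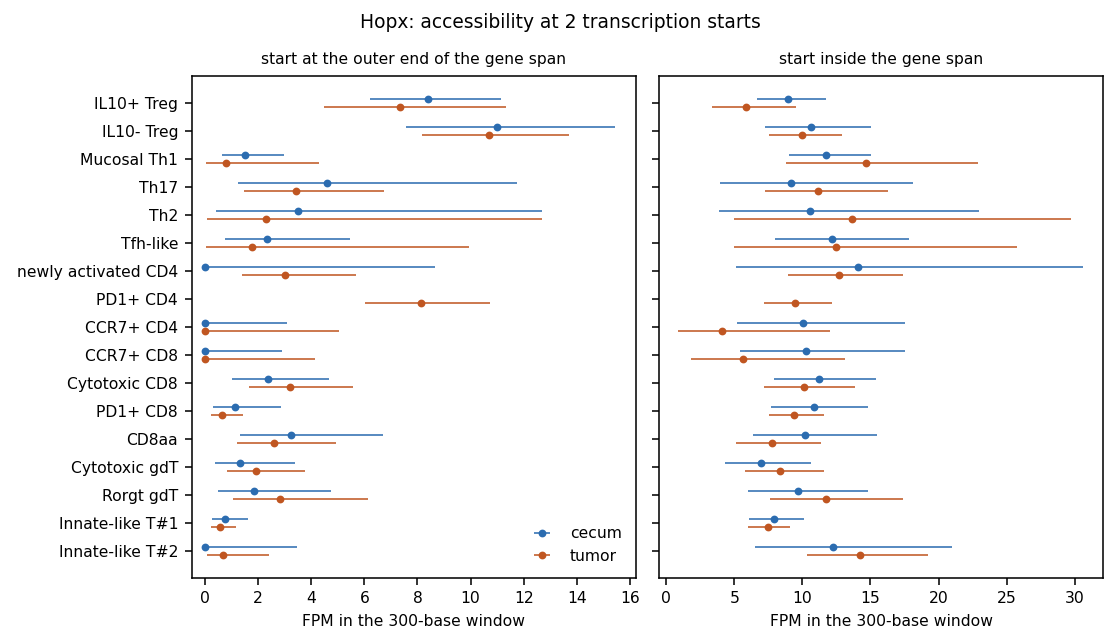
FPM (x axes, on different linear scales) in the 300-base windows of the outer (left) and inner (right) Hopx start, by cell type (rows) and library (colours), with exact 95% counting intervals. PD1+ CD4 cells are shown for the tumor only. The outer start is above 7 FPM in both Treg labels and in tumor PD1+ CD4 cells and at 0 in both CCR7+ labels, and the inner start lies between 4.11 and 14.7 FPM throughout.

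The starts of the other genes with a sequence did not share this pattern. The Prdm1 window had 30.5 FPM in cecum cells and 29.4 FPM in the tumor. It was lowest in Tfh-like cells in the tumor (17.8 FPM from 10 fragments) and in the cecum (17.4 FPM), where Innate-like T#1 cells had 17.7 FPM. Its highest ordered labels were Mucosal Th1 cells in the cecum (41.1 FPM) and Th2 cells in the tumor (41.0 FPM from 18 fragments, 24.3 to 64.8). IL10+ Treg cells were at 39.8 and 40.7 FPM. At Zeb2 the inner start held 9.94 and 11.6 FPM over all cells, while the outer start held 1.52 and 1.72 FPM. The inner start was highest in Th17 (18.4 FPM from 16 fragments) and Innate-like T#2 cells (17.0 FPM from 18) of the cecum. In the tumor it was highest in Rorgt gdT (17.4 FPM from 37 fragments) and Th2 cells (15.9 FPM from 7, 6.41 to 32.9). CD8aa cells had 13.9 and 12.4 FPM and Cytotoxic gdT cells 12.6 and 12.9 FPM. Beside them stood 7.09 and 12.4 FPM in CCR7+ CD8 cells (9 and 11 fragments) and 7.54 and 5.48 FPM in CCR7+ CD4 cells (9 and 4 fragments). Cytotoxic CD8 cells had 10.0 and 9.06 FPM, below CCR7+ CD8 cells in the tumor.

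IL10+ and IL10- Treg cells were compared because the study turns on the division of these subsets. A gene was called when it differed at least 1.5-fold the same way in both libraries, on the log2(FPM + 1) scale and with at least 50 fragments over both labels in each library. None of the 6 genes was called, where 0.861% of 14410 genes were higher and 4.36% lower in IL10+ Treg cells. Zeb2 came nearest, with 125 against 78.6 FPM in cecum cells (log2 0.67, 0.45 to 0.89) and 152 against 105 FPM in the tumor (0.54, 0.35 to 0.72). Bhlhe40 was higher in IL10+ Treg cells by 0.64 (0.49 to 0.80) in cecum cells and 0.28 (0.14 to 0.42) in the tumor. Maf was higher by 0.55 in the tumor (0.36 to 0.74), while its interval in the cecum included 0 (0.17). Prdm1 was within counting error in cecum cells (0.11, -0.03 to 0.25) and higher by 0.27 in the tumor (0.12 to 0.41). Zeb1 gave -0.06 and 0.18. Hopx was lower in IL10+ Treg cells, by -0.50 (-0.70 to -0.30) and -0.20 (-0.41 to 0.02). The summed myeloid genes were at 83.7 FPM in IL10+ and 125 FPM in IL10- Treg cells of the cecum and at 93.5 and 132 FPM in the tumor, and the epithelial genes at 99.1 and 146 FPM and at 103 and 162 FPM. Their part in these ratios was not tested.

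Among 10 partners and targets of c-Maf and Blimp-1, 4 were called higher and 2 lower in IL10+ Treg cells. Among the former were Il10 (log2 with pseudocount 0.94 and 1.38), the IL-23 receptor gene Il23r (1.62 and 1.54) and Il21 (1.05 and 2.01), and the 2 lower genes were the cytokine genes Il4 (-2.27 and -1.89) and Il2 (-0.91 and -0.87). Il4 had 2.45 and 1.83 FPM in IL10+ Treg cells and passed the minimum mainly through IL10- Treg cells. Il21 had 5.67 and 3.45 FPM in IL10- Treg cells, so the ratios of both genes rest on few fragments in 1 label. Irf4 (0.12 and 0.38), Batf (0.06 and 0.29), Ccr6 and Bcl6 were not called. The list median was 0.15 and 0.35, beside 0.01 in both libraries over all genes tested. Of 10 effector genes, the granzyme gene Gzmb was called higher (1.10 and 1.02) and Gzma (-2.09 and -0.60) and Klrg1 (-2.53 and -1.35) lower, with a list median of 0.19 and -0.10. None of 10 residency genes (median 0.26 and 0.16) and none of 10 memory and egress genes (-0.20 and -0.06) was called. The labels were made from the RNA of the same nuclei, and Il10 gives the labels their names.

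For cytotoxic differentiation, Cytotoxic CD8 cells were set against CCR7+ CD8 cells. Zeb2 was the 1 member called, higher in Cytotoxic CD8 cells, where 4.04% of 13243 genes were called higher and 3.65% lower. It had 159 against 67.7 FPM in cecum cells (1.23, 0.90 to 1.58) and 154 against 95.7 FPM in the tumor (0.68, 0.35 to 1.03), and was not called at 2-fold. Within 1 kb of the gene ends the tumor ratio turned to -0.19, and the Zeb2 call was lost. Bhlhe40 (1.22 and 0.53) and Hopx (0.56 and 1.02) were higher in both libraries, each just short of 1.5-fold in one of them. Zeb1 was lower by -0.52 in the cecum (-0.68 to -0.36), and its tumor interval included 0 (-0.12, -0.31 to 0.09). Maf (-0.28 and -0.22) was within counting error. Prdm1 stood at 0.20 (-0.03 to 0.43) and 0.28 (0.02 to 0.55), and its tumor value turned to -0.45 within 1 kb of the gene ends. The Prdm1 start shown above lies outside those windows. In the same comparison 7 of 10 memory and egress genes were lower, among them Ccr7 (-1.80 and -1.68), the gene of a chemokine receptor for entry into lymph nodes, which also gives the CCR7+ labels their name. Of the effector genes 4 were higher, among them Klrg1 (3.96 and 3.13) and Ifng (2.15 and 2.02), and the gene of the memory-associated T-box factor Eomes was lower (-0.65 and -0.64). Klrg1 had 2.36 and 4.50 FPM and Ifng 9.45 and 11.3 FPM in CCR7+ CD8 cells, so their ratios rest on few fragments there. Of the residency genes 4 were higher, Itga1, Zfp683, Rgs1 and Ahr. List medians were -1.27 and -1.28 for memory and egress, 0.85 and 0.33 for effector and 0.54 and 0.40 for residency genes, beside 0.01 in both libraries over all genes. Of the partners and targets 7 of 10 reached the minimum, 3 of them higher. The summed myeloid genes were at 113 FPM in Cytotoxic CD8 and 158 FPM in CCR7+ CD8 cells of the cecum and at 121 and 138 FPM in the tumor, and the epithelial genes at 176 and 139 FPM and at 169 and 134 FPM. Their part in the ratios was not tested.

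PD1+ CD8 cells, which carry the inhibitory receptor of chronically stimulated T cells, differed from Cytotoxic CD8 cells in Maf. It had 63.3 against 39.5 FPM in cecum cells (0.68, 0.36 to 0.997) and 61.2 against 39.7 FPM in the tumor (0.63, 0.36 to 0.90), and it was the 1 member called, where 1.81% of 14446 genes were higher and 0.699% lower. The Maf call lay close to the threshold and was lost without flanks, with 50 kb flanks, as a mean over cells, at 2-fold and with a pseudocount of 5 FPM. Zeb2 was lower in PD1+ CD8 cells in both libraries (-0.55, -0.74 to -0.36, and -0.33, -0.47 to -0.18), as was Zeb1 (-0.28, -0.42 to -0.14, and -0.37, -0.48 to -0.26). Both Zeb genes were thus lower in PD1+ CD8 cells, while in the cecum they differed in direction between the cytotoxic and CCR7+ labels. Prdm1 (intervals of -0.16 to 0.15 and -0.05 to 0.20) and Bhlhe40 (-0.13 to 0.20 and -0.12 to 0.12) were within counting error. Of the memory and egress genes 2 were higher, Ccr7 among them, and the IL-7 receptor gene Il7r was lower, while Eomes was the 1 effector gene called, higher, and no residency gene and none of the 9 tested partners and targets was called. PD1+ CD8 cells had 152 and 162 FPM of the summed myeloid genes and 148 and 155 FPM of the epithelial genes, whose part in the ratios was not tested.

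Mucosal Th1 cells against CCR7+ CD4 cells gave the most members past the fold. Zeb2 (0.82, 0.47 to 1.18, and 0.90, 0.37 to 1.47), Bhlhe40 (1.45, 1.14 to 1.77, and 1.79, 1.36 to 2.25) and Hopx (1.16, 0.69 to 1.67, and 1.44, 0.80 to 2.12) were called higher, 3 of 6 where 3.95% of 11409 genes were higher and 3.54% lower. Within 1 kb of the gene ends, or with at least 200 fragments, Bhlhe40 was the 1 member called. Zeb2 (126 and 38 tumor fragments) and Hopx (120 and 25) missed the minimum of 200. Maf stood at 0.89 and 0.56, and without flanks the tumor value turned to -0.07. Zeb1 was lower, by -0.47 (-0.62 to -0.31) and -0.57 (-0.81 to -0.34). Prdm1 stood at 0.27 (0.06 to 0.48) and 0.16 (-0.14 to 0.46), with a cecum value of -0.10 within 1 kb of the gene ends. Of 9 residency genes tested 6 were higher, among them the CD103 gene Itgae (0.91 and 0.91) and Zfp683, which encodes the Blimp-1 relative Hobit (1.90 and 1.33), and 7 of 10 memory and egress genes were lower. Of 8 effector genes 3 were higher and 2 lower, and of 6 partners and targets Il10 (3.89 and 3.26) and Il23r were higher. Il10 had 3.35 and 5.48 FPM in CCR7+ CD4 cells, so its ratios rest on few fragments there. List medians were 1.18 and 0.91 for residency, -1.02 and -0.87 for memory and egress and 0.29 and 0.28 for effector genes, beside -0.01 and -0.03 over all genes. The summed myeloid genes were at 121 and 127 FPM in Mucosal Th1 and 130 and 129 FPM in CCR7+ CD4 cells, and the epithelial genes at 146 and 165 FPM and at 84.7 and 123 FPM, and their part in the ratios was not tested.

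**Figure D3:**
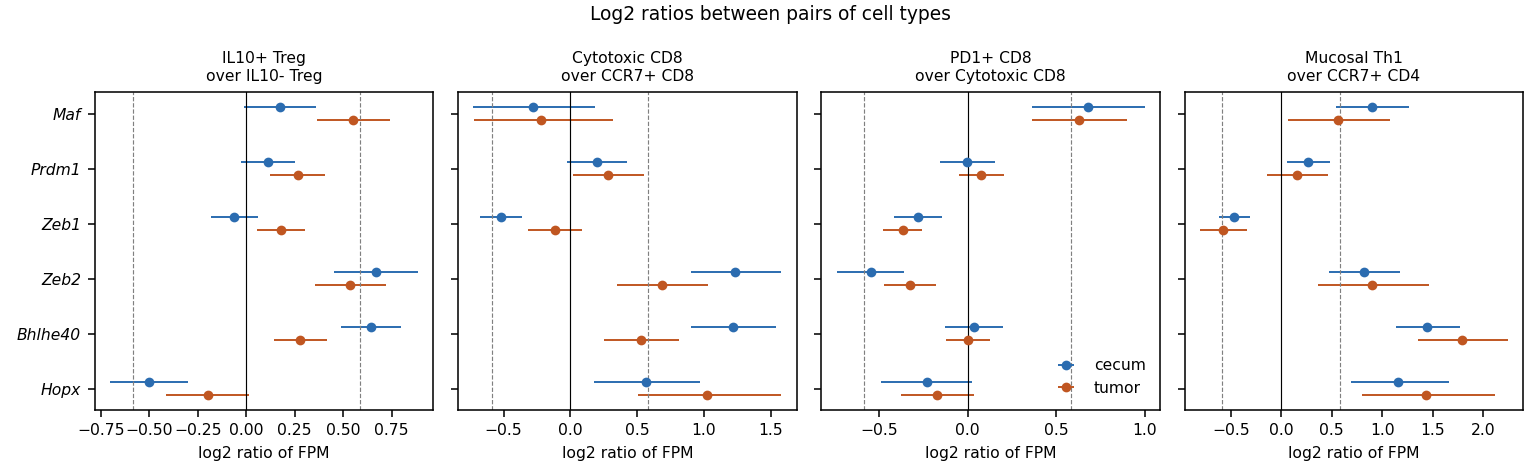
Log2 ratios of FPM (x axes, counts without a pseudocount) for the 6 genes (rows) between 4 pairs of cell types in the cecum (blue) and tumor (orange) libraries, with exact 95% counting intervals and dashed lines at 1.5-fold. Zeb1 lies left of 0 in both libraries in the 3 comparisons without Treg cells, and Bhlhe40 has intervals right of 0 in both libraries in each comparison but PD1+ over Cytotoxic CD8.

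Tiles showed where the Maf locus opened. Of 408 tiles, 20 held at least 20 fragments over both Treg labels in each library, and 12 of them were higher in IL10+ Treg cells in both libraries, 0 were lower and 8 differed in direction. In 3 of the 12 the interval was above 0 in both libraries. They started at 115707001 and 115708001, both within 1.36 kb of the span, and at 115742501. Without cells above 3 times the median count the first fell from 0.46 to 0.11 (-0.39 to 0.64) in the cecum. The intervals of the others stayed above 0 in both libraries. As a background, 39.3% of 11780 windows of 300 bases at gene starts with the same minimum of fragments were higher by sign in both libraries and 21.1% lower, and 1.67% had both intervals above 0 and 1.49% both below. Tiles at other loci were not counted. The tile with most fragments, chr8:115707501-115708000, lay 0.86 kb from the span and overlapped no annotated gene. It had 53.5 FPM in Tfh-like cells, 52.7 FPM in Th2 cells and 48.5 FPM in IL10+ Treg cells of the cecum, 2.78 FPM in CD8aa cells and 8.64 FPM in Cytotoxic gdT cells. In the tumor these labels had 55.3, 57.0, 53.2, 7.80 and 6.44 FPM. The tile is part of the window of the Maf level, so its low values in CD8aa and Cytotoxic gdT cells are not separate from that level. It held 6 of the 14 cecum and 27 of the 59 tumor fragments of CD8aa cells in the window.

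Away from the Maf span, 3 tiles differed in the labels that led them. The tile chr8:115742501-115743000, 35.9 kb away and outside annotated genes, was highest in Tfh-like cells in the cecum (40.8 FPM) and in Th2 cells in the tumor (45.6 FPM). IL10+ Treg cells had 24.9 FPM there against 14.7 FPM in IL10- Treg cells of the cecum (0.76, 0.27 to 1.28) and 19.4 against 11.2 FPM in the tumor (0.80, 0.24 to 1.34). The tile was picked for this ratio. All CD8, cytotoxic and innate-like labels were at or below 2.50 FPM in both libraries, and PD1+ CD8 cells, with the higher Maf level among CD8 labels, had 2.50 and 1.64 FPM. The tile chr8:115618501-115619000 lay 84.5 kb to the other side, within the span of the predicted gene Gm39256. It was led by Mucosal Th1 cells (22.7 and 24.7 FPM) and was similar in IL10+ (22.1 and 17.2 FPM) and IL10- Treg cells (19.995 and 22.0 FPM). Cytotoxic CD8 cells had 8.85 and 9.59 FPM there, so this distal tile, unlike the former, was open in them. The tile chr8:115771001-115771500, 64.4 kb away and in no gene, was led by Th17 cells (28.7 and 19.7 FPM). In the tumor IL10- Treg cells had more of it than IL10+ Treg cells (17.1 against 10.3 FPM, log2 -0.73, -1.39 to -0.11), and in the cecum the labels had 14.7 and 15.6 FPM (0.09, -0.45 to 0.64).

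**Figure D4:**
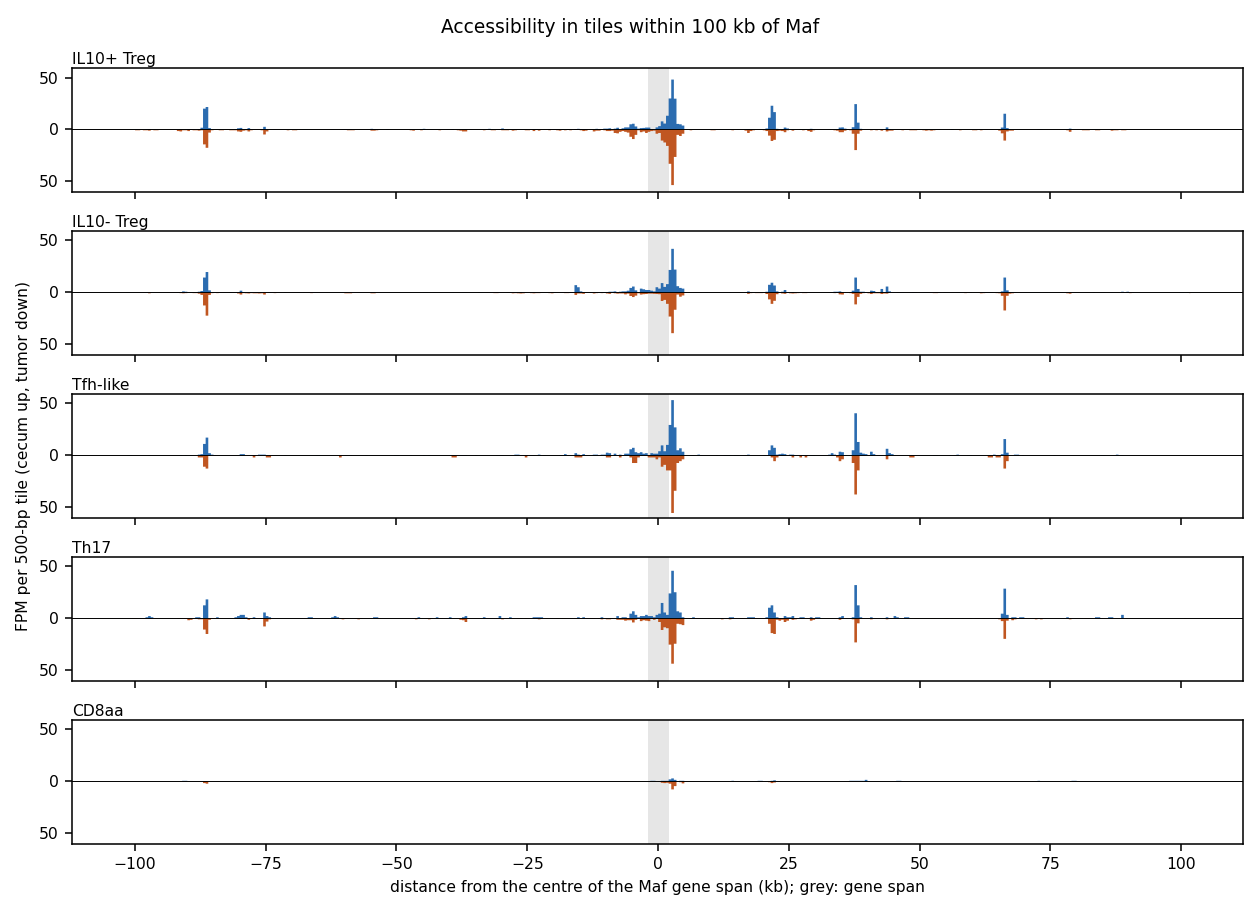
FPM in 500-bp tiles (y axis, cecum upward in blue, tumor downward in orange, the same scale in every row) by distance from the centre of the Maf span (x axis, kb; grey marks the span) for 5 cell types. Tfh-like cells show the highest distal peak on the right, at 40.8 and 37.4 FPM, and CD8aa cells have low bars, at 2.78 and 7.80 FPM in the tile with most fragments.

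At Prdm1, some tiles differed more between cell types than the whole gene did. Of 584 tiles 43 held enough fragments, 20 of them higher in IL10+ Treg cells in both libraries, 4 lower and 19 of mixed direction. In 3 of the 20 and 0 of the 4 the intervals of both libraries excluded 0, to be read against the shares of start windows given above. The tiles 28.7 and 36.7 kb beyond the span, described below, are among the 3 and met the minimum mainly through IL10+ Treg cells. The tile chr10:44557001-44557500, 28.7 kb beyond the span and in no annotated gene, had the most fragments in 3 labels. Rorgt gdT cells had 13.4 FPM in cecum cells and 16.0 FPM in the tumor, Th17 cells 8.04 and 7.27 FPM and IL10+ Treg cells 7.71 and 8.43 FPM. No other label exceeded 1.03 FPM in either library, IL10- Treg cells with 0.67 and 1.03 FPM included, and the median label had 0.19 and 0.13 FPM. Some labels with 0 fragments were too shallow to be set apart from Th17 and IL10+ Treg cells, since 3 fragments would be 7.03 FPM in newly activated CD4 cells of the cecum, 5.27 and 6.83 FPM in Th2 cells of the cecum and tumor and 5.35 FPM in Tfh-like cells of the tumor. Between the Treg labels the fragments were 44 against 2 in cecum cells (3.53, 1.59 to 6.62) and 23 against 6 in the tumor (3.03, 1.69 to 4.61). The tile was picked for this ratio and for the lead of its highest label, and the intervals do not allow for that choice. It passed the minimum of Treg fragments mainly through IL10+ Treg cells.

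A second tile, chr10:44565001-44565500, lay 36.7 kb beyond the span and differed between the Treg labels to a like degree but was shared with other cells. It held 49 against 3 fragments in cecum cells (3.10, 1.47 to 5.43) and 20 against 6 in the tumor (2.83, 1.46 to 4.43). This tile and the tile in Atg5 given below were also picked for their Treg ratio. The former passed the minimum of Treg fragments mainly through IL10+ Treg cells in both libraries, and the latter did so in the cecum. In the second tile Mucosal Th1 cells had 12.1 and 10.0 FPM, IL10+ Treg cells 8.58 and 7.33 FPM and Cytotoxic CD8 cells 7.08 and 3.46 FPM. Rorgt gdT cells had 5.55 and 6.59 FPM and Cytotoxic gdT cells 5.32 and 5.01 FPM. Th17 cells had 2.30 FPM in the cecum, from 2 fragments, and 9.40 FPM in the tumor, from 22. Th2 cells led in the tumor with 11.4 FPM from 5 fragments and had 0 fragments in the cecum, and PD1+ CD4 cells of the tumor had 10.1 FPM from 62 fragments. In contrast, CCR7+ CD4 and CCR7+ CD8 cells had 0 fragments in both libraries, with exact intervals that end at 3.09 and 2.90 FPM for cecum cells and at 5.05 and 4.15 FPM for tumor cells. On the other side of the gene, the tile chr10:44360501-44361000, 76.4 kb away within the span of the autophagy gene Atg5, had 29 against 3 fragments in the cecum (2.34, 0.66 to 4.70), but 17 against 19 in the tumor (0.93, -0.11 to 1.95), where the interval included 0. Without cells above 3 times the median count the fragments were 17 against 3 in the cecum (1.33, -0.46 to 3.74) and 13 against 11 in the tumor (1.29, 0.02 to 2.59). A tile in the opposite direction, chr10:44609001-44609500, lay 80.7 kb away in the predicted gene Gm35154. It was taken for the lead of its highest label and is not among the 43, since its Treg fragments in the cecum, 3 against 14, missed the minimum. Th2 cells led it with 12.3 and 20.5 FPM from 7 and 9 fragments, and IL10- Treg cells came next with 4.67 and 3.79 FPM, against 0.53 and 1.10 FPM in IL10+ Treg cells (log2 -3.15, -5.59 to -1.31, and -1.78, -4.17 to -0.05).

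The tiles with most fragments at Prdm1 were close to the gene and more even. The tile of the start shown above, chr10:44458501-44459000, held 38.9 FPM in cecum cells and 38.1 FPM in the tumor, with Tfh-like cells lowest at 20.2 and 26.8 FPM. The tile chr10:44529501-44530000, 1.19 kb beyond the span, held 20.6 and 19.2 FPM and ranged from 15.0 to 30.7 FPM in the cecum. The tile chr10:44448001-44448500, inside the gene span, was highest in CCR7+ CD4 cells, with 32.7 FPM in cecum cells (39 fragments) and 34.2 FPM in the tumor (25 fragments), against medians of 19.6 and 17.9 FPM. CCR7+ CD8 cells had 22.8 and 21.4 FPM there, within the range of the other labels. IL10- Treg cells were lowest in cecum cells (11.7 FPM) and IL10+ Treg cells in the tumor (12.5 FPM).

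**Figure D5:**
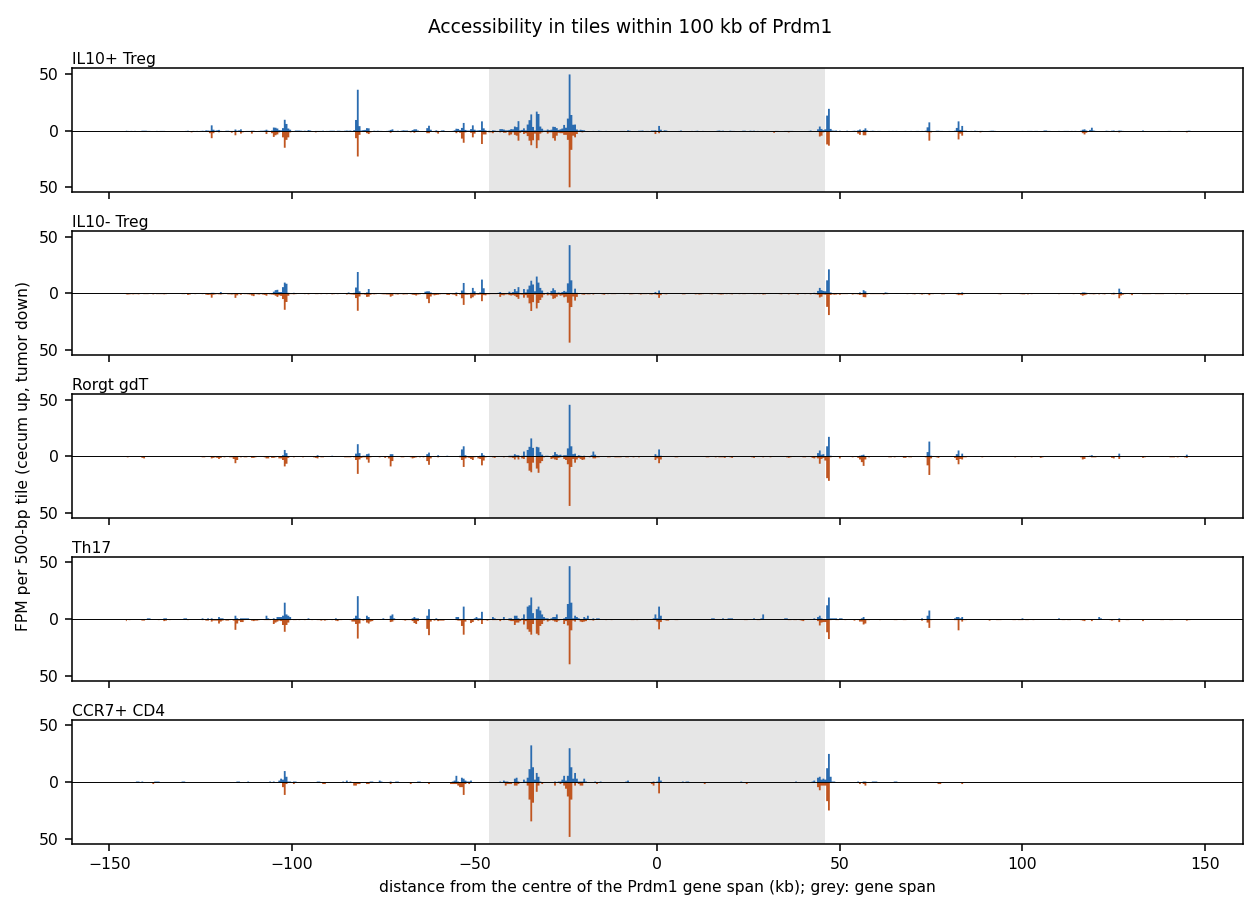
FPM in 500-bp tiles (y axis, cecum upward in blue, tumor downward in orange, the same scale in every row) by distance from the centre of the Prdm1 span (x axis, kb; grey marks the span) for 5 cell types. The peak near 75 kb, the tile 28.7 kb beyond the span, is present in IL10+ Treg, Rorgt gdT and Th17 cells and absent from the drawn scale in IL10- Treg and CCR7+ CD4 cells.

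Few members differed by 1.5-fold between tumor and cecum for the same label. Of 96 pairs of a member and a label, 3 passed 1.5-fold, where 4.67% of 212503 pairs over all genes did. They were Bhlhe40 in CCR7+ CD8 cells, with 141 FPM in the tumor and 75.6 FPM in the cecum (0.90, 0.50 to 1.30), Maf in CD8aa cells, with 17.1 and 6.5 FPM (1.39, 0.53 to 2.35), and Zeb2 in Rorgt gdT cells, with 181 and 116 FPM (0.64, 0.40 to 0.87). With these pairs included, Bhlhe40 was higher in the tumor in 12 of 16 labels, 7 with an interval above 0 and 0 with one below, and its median over labels was 0.20. Of the 96 member pairs, 16 had an interval above 0 and 6 one below. Of all pairs of a gene and a label, 5.8% had an interval above 0 and 5.91% one below. Intervals narrow with more fragments, and among pairs with at least 200 fragments the shares were 5.98% and 7.2%, beside 14 and 6 of 81 member pairs. The 7 included IL10- Treg cells (0.38, 0.22 to 0.54) and Innate-like T#2 cells (0.54, 0.30 to 0.79), and IL10+ Treg cells were at 0.02 (-0.12 to 0.15). Zeb2 was higher in 9 of 16 labels, 6 with an interval above 0 and 0 below, both Treg labels among them. Zeb1 had 4 intervals below 0 and 1 above, with -0.44 (-0.67 to -0.22) in CCR7+ CD8 cells. Maf, in the CD8aa pair given above, and Prdm1 each had 1 interval above 0 and each had 1 below, and Hopx had 0 of either. Only pairs whose interval excluded 0 were recomputed under alternatives. Under at least 1 of these the sign turned for Bhlhe40 in Cytotoxic CD8 and Mucosal Th1 cells and for Zeb2 in Th17 cells. It also turned for Zeb1 in IL10- Treg and PD1+ CD8 cells, Maf in IL10- Treg cells and Prdm1 in Th17 cells. A batch and the tissue cannot be told apart with 1 library each.

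The levels of a member over labels were similar between the libraries, with a Pearson r of log2(FPM + 1) over the 16 labels from 0.79 for Zeb1 to 0.95 for Maf. Among 13381 genes with at least 500 fragments, those most like a member were taken by the smaller r of the 2 libraries, and all r values describe labels that share libraries and scaling. For Maf they were 4932438H23Rik (0.89 and 0.89), Smco4 (0.88 and 0.95) and Gpr25 (0.88 and 0.96). Bhlhe40 was followed by Serpina3f (0.89 and 0.90), Sla (0.89 and 0.89) and Fnbp1 (0.86 and 0.84), and Hopx by Ttc39c (0.80 and 0.83), Kcnk6 (0.78 and 0.78) and Tnfrsf8, which encodes CD30 (0.76 and 0.80). For Zeb1 they were Zfp704, Otud7a and Col26a1 (0.78 to 0.84), for Zeb2 Atg14, Ehd1 and Adam8 (0.75 to 0.82), and for Prdm1 Sntb1, Gna15 and Plekhb2 (0.72 to 0.80). Between members, Bhlhe40 and Zeb2 went together (0.56 and 0.59), Bhlhe40 and Zeb1 went apart (-0.72 and -0.58), and Maf and Prdm1 had little in common (0.17 and 0.10).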

How the data were processed

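Fragment files are the authors' output of Cell Ranger ARC 2.0.0, run on mm10 per the file headers. Each deposited line is a unique fragment with its barcode and a raw count of read pairs (4.29 per fragment in the cecum, 3.11 in the tumor), neither normalized nor filtered. Cell labels are the authors', from RNA. The RNA counts were not analysed here. Some genes of the lists are counted but not reported by name. Doublets were not called. Each fragment of chromosomes 1 to 19, X or Y was counted once, 66399623 in the cecum and 96644537 in the tumor library, of which labelled cells held 66.2% and 64.3%. The table of RefSeq gene spans used here (GRCm38.p6, the mm10 build) gave no strand or exons, so whether a tile is exonic or intronic is not stated.

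Members, contrasts and gene lists were chosen with earlier results of these data known. Levels have exact Poisson and ratios exact conditional binomial intervals (95%), for counting error only, since each tissue had 1 library. A count of 0 allows up to 3 counts (a one-sided limit). Calls used a pseudocount of 1 FPM, which understates ratios of low genes, and 50 fragments per gene or 20 per tile in each library. All members were named, with the 3 most like genes each, and tiles by Treg ratio, by fragments and by the lead of a label over the median label. Alternatives were a minimum of 1000 fragments a cell, removal of cells above 3 times the median, other windows (span, 1 kb around its ends, 50 kb flanks), other scalings, 2-fold, a pseudocount of 5 FPM, other minimums and tiles shifted by 250 bp. Python 3.11.15, numpy 2.4.6, pandas 2.3.3, scipy 1.17.1 and numba 0.67.0 were used. The counter was tested on simulated fragments. In Poisson counts simulated for the Treg labels, 200 of 14553 cecum genes and 200 of 14795 tumor genes had a log2 ratio of 1, and over those 200 the median ratio was 1.0 and 1.01 and 97.0% and 96.5% of intervals covered the true value.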

Additional observations from a re-analysis of the deposited data

Results flagged for a closer look

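For 3 genes the log2 ratio of tumor over cecum had opposite signs in different cell types, each with an interval that excluded 0. The differences between the cell types were not tested, and they were the extreme ones among the labels, of 16, whose interval excluded 0. Maf was at 1.39 in CD8aa cells, from 14 cecum and 59 tumor fragments, and at -0.23 in IL10- Treg cells, where it was 0.036 within 1 kb of the gene ends. Prdm1 was at 0.24 in Rorgt gdT cells and -0.26 in Th17 cells, where it was 0.027 within 1 kb of the gene ends and 0.0030 with 50 kb flanks, and Zeb1 at 0.17 in CD8aa cells and -0.44 in CCR7+ CD8 cells.

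Barcodes without a cell label but with at least 1000 fragments, 1592 (cecum) and 2044 (tumor), held fragments of every member above the limit that a count of 0 allows. Their levels in cecum and tumor were 74.3 and 65.7 FPM for Maf, 167 and 171 FPM for Prdm1, 241 and 229 FPM for Zeb1, 105 and 128 FPM for Zeb2, 154 and 195 FPM for Bhlhe40 and 52.5 and 65.9 FPM for Hopx. Against the pooled FPM of all labelled cells of the library, the log2 differences ran from -0.02 (Zeb2, tumor, -0.07 to 0.04) to -0.35 (Hopx, cecum, -0.46 to -0.24). Intervals that included 0 were those of cecum Maf and of tumor Prdm1, Zeb2 and Hopx.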

How the results depend on the processing

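Of 70 log2 ratios of single members, recomputed under 7 alternatives each, 413 values stayed within the main interval, 64 moved beyond it and 13 changed sign. A change of sign was counted only where the main interval excluded 0. Where it included 0, any values of the other sign stand among the 413 and the 64. Within 1 kb of the gene ends, the signs that changed gave -0.45 for Prdm1 and -0.19 for Zeb2 (Cytotoxic over CCR7+ CD8, tumor), -0.10 for Prdm1 (Mucosal Th1 over CCR7+ CD4, cecum) and, for tumor over cecum, 0.036 for Maf in IL10- Treg, 0.11 for Zeb1 in PD1+ CD8 and 0.027 for Prdm1 in Th17 cells, the last also with 50 kb flanks (0.0030). Without flanks Maf gave -0.069 (Mucosal Th1 over CCR7+ CD4, tumor) and Bhlhe40 -0.0031 (Cytotoxic CD8, tumor over cecum). The mean over cells gave, for tumor over cecum, 0.14 for Zeb1 in IL10- Treg, -0.11 for Bhlhe40 in Mucosal Th1 and -0.088 for Zeb2 in Th17 cells, and Zeb1 in IL10- Treg was 0.013 without cells above 3 times the median, of which there were 960 (cecum) and 654 (tumor). The windows at gene ends hold neither the Prdm1 start shown above nor the inner Zeb2 start. The cause of the changes of sign was not tested.

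No member was called between the Treg labels under any alternative run. For Cytotoxic over CCR7+ CD8 the count of 1 became 2 without flanks, near gene ends, with 50 kb flanks and as a mean over cells, and 0 at 2-fold. Near gene ends Zeb2 was not among the 2. For PD1+ over Cytotoxic CD8 (Maf) it became 2 near gene ends and 0 without flanks, with 50 kb flanks, as a mean over cells, at 2-fold and with a pseudocount of 5 FPM. For Mucosal Th1 over CCR7+ CD4 the 3 became 1 near gene ends and with 200 fragments, and ranged from 1 to 4. Zeb2 and Hopx did not reach 200 fragments in the tumor. The 3 pairs of tumor over cecum became 5 without flanks and near gene ends, 6 as a mean over cells and 1 at 2-fold. The leading label of all 6 genes held for 3 near gene ends in each library, and in the tumor for 3 without flanks or as a mean over cells and 2 with 50 kb flanks. Without the high-count cells, 1 Maf tile was lower in IL10+ Treg cells in both libraries and 13 Prdm1 tiles were higher, and with 50 fragments 7 Prdm1 tiles were higher and 1 lower. The Prdm1 tiles 28.7 and 36.7 kb away gave 2.999 and 3.86 and 2.87 and 2.64 without the high-count cells, while the tile in Gm35154 had intervals that included 0 and the tile in Atg5 gave 1.33 in the cecum and 1.29 in the tumor. No paired analysis was possible because each tissue had 1 library. Tiles with few fragments, such as 2 or 3 in IL10- Treg cells, have wide intervals.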
